A study of Danio rerio with 12 samples.

Results

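Cadherins, protocadherins, integrins, Eph receptors and ephrins are the cell-surface proteins through which cells hold on to each other, hold on to the matrix or push each other away. Cadherins bind cadherins on the next cell and are tied to actin through catenins. Protocadherins are related proteins with weaker adhesion that act in cell sorting and movement. Integrins are pairs of an alpha and a beta chain that bind matrix proteins such as fibronectin and laminin. Eph receptors are tyrosine kinases that bind membrane-held ephrins on a neighbouring cell, and both cells can respond. In the paraxial mesoderm these families are known for their part in the change from loose mesenchymal cells in the tailbud to epithelial blocks, the somites, and in keeping boundaries between somites sharp.

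The genes were taken by name. Every probe set with a single gene symbol beginning with cdh and a digit, pcdh, itga, itgb, epha, ephb, efna or efnb was taken, and where a gene had several, the one with the highest mean over the 12 arrays stood for it. This gave 37 genes on 47 probe sets, out of 8793 genes with a single symbol: 8 cadherins, 7 protocadherins, 4 integrin alpha chains, 1 integrin beta chain, 9 Eph receptors and 8 ephrins. Probe sets listed with several symbols were not taken.

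The samples were wild-type zebrafish embryos of the AB line, grown at 23 °C and dissected by hand at the 12-somite stage, with no treatment or mutation in any group. The 6 groups are positions along the paraxial mesoderm, namely the center of the tailbud (position 1), the tissue flanking it (2), the posterior, center and anterior presomitic mesoderm or PSM (3, 4 and 5) and the last formed somites (6). There are 2 arrays for each of them, named biological replicates in the labels, which at position 2 are the left flank and the right flank. The sources used here do not say how many embryos were pooled for a sample.

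Values are signals of the Affymetrix Zebrafish array on a linear scale, and errors beside means are the SD with n = 2. Signals of different probe sets are not compared with each other, because probes differ in how they bind. Sums of marker signals add several probe sets, so a sum mostly follows its strongest ones. Such a sum is compared only with itself between arrays and does not measure the amount of a tissue. Median signals per array ran from 27.3 to 68.3, and the somite arrays had the lowest, 27.3 and 33.7. Tests are limma tests on log2 of the signal plus an offset of 12.2, over 10851 probe sets, and "rose" and "fell" are kept for an adjusted p under 0.05. The trend is the fitted log2 change from position 1 to position 6. Over all tested probe sets the median trend was -0.13 for the deposited scaling, 0.01 after quantile normalization and 0.24 after median centring. Calls of single genes were made without subtracting that shift.

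The tissue labels were checked with marker genes. The listed paraxial mesoderm genes tbx16, tbx16l, msgn1 and tbx6 summed to between 8119 and 10640 on the 6 arrays of positions 1 to 3. In the somites they summed to 292.5 and 471.6. Of these 4 genes 3 fell along the trend and 1 rose, so the sum does not stand for each of them. Among all tested probe sets 6.12% fell and 7.1% rose. The somite and muscle list (6 of its 9 genes on the array) summed to 185.3 and 339.9 at position 1. Its sums were highest in the anterior PSM, 4209 and 3649, and were 2117 and 1867 in the somites. Markers of other tissues were also present. Epidermal markers (8 of 10 on the array) summed to 1276 and 704.6 at position 1, 4111 and 7782 at position 2, and 880.8 and 2296 in the somites. Neural tube markers (8 of 8) summed to 529.4 and 2344 on the first and second array of position 1, and notochord and floor plate markers (6 of 7) to 2037 and 3188. Endothelial and blood markers (6 of 8) summed to 310.2 on the left flank and 1484 on the right. Neural crest markers (5 of 5) summed to between 287.7 and 1765 and endoderm markers (4 of 4) to between 37.8 and 358.5. No marker was listed at 0. Replicates differed in these sums at other positions as well, with neural tube sums of 221.4 and 855.3 in the anterior PSM. The flank replicates had the lowest correlation over all probe sets, 0.828, against 0.859 to 0.972 at the other positions.

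Of the 37 genes, 23 passed the filter on low mean signal and 14 did not. The filter keeps a gene by its mean over all 12 arrays, so the 23 are the better measured genes and not the whole set, and counts over them are descriptions. Of the 23, 10 were called in at least 1 of the 8 comparisons made here, as were 16.9% of all tested probe sets. Among them, 9 differed among the positions in the F test, where 11.2% of all tested probe sets did. Along the trend 2 rose (7.1% of all tested probe sets rose) and 6 fell (6.12% of all fell). Under quantile normalization, with 24 genes tested, and under median centring, 3 rose and 4 fell. Without the second tailbud center array, the F calls of *itgb5*, *epha4a*, *epha2a* and *ephb4b* were lost. The trend calls of *cdh11* and *epha2a* were lost too, with estimates of -1.07 and -1.84, and a trend call of *cdh1* was gained (-1.20). The share of trend calls that were higher toward the somites was 25% among these genes and 53.7% among all probe sets for the deposited scaling. It was 42.9% and 54.4% after quantile normalization, and 42.9% and 80.1% after median centring. The further gene that rose under both of these was *efnb2a*. Its deposited signals on the left flank and on all arrays of positions 1, 3 and 4 were below the filter level of 18.38.

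**Figure D1:**
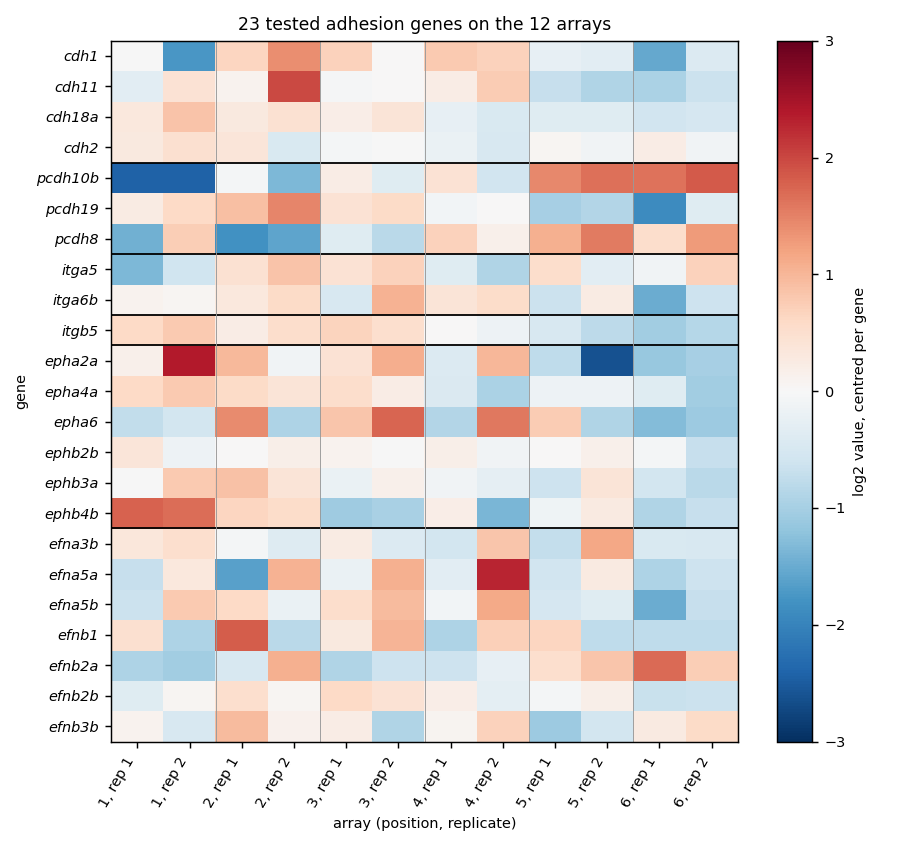
Values of the 23 tested genes (rows, grouped by family) on the 12 arrays (columns, by position and replicate), as log2 of the signal plus 12.2, centred on each gene's mean; red is higher and blue lower. The row of pcdh10b runs from blue at position 1 to red at positions 5 and 6, while the rows of pcdh19, itgb5 and epha4a run the other way.

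Both genes of the 23 that rose along the trend were protocadherins, and a further protocadherin fell. *pcdh10b*, a protocadherin of the somites and nervous system, had signals of 39.1 and 39.9 at position 1, 255.2 and 97 at position 2, 313.8 and 202.8 at position 3, 364.0 and 174.4 at position 4, 737.5 and 859.3 at position 5, and 840.8 and 974.2 in the somites. Both arrays at positions 5 and 6 lay above every array of positions 1 to 4, and both tailbud center arrays lay below all others. It rose along the trend by 3.93 ± 0.32 on the log2 scale (SE, 15.2-fold, limma adjusted p = 4.78e-08). In bulk tissue, more cells with a transcript and more transcript per cell cannot be told apart, here and in the results that follow.

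Between neighbouring positions, 1 step of *pcdh10b* was called. From the center of the tailbud to its flank it rose by 1.73 ± 0.38 (3.31-fold, adjusted p = 0.0266), at a step where 1.11% of all tested probe sets rose and 0.424% fell. The next largest step, from the center to the anterior PSM, was 1.61 and was not called (adjusted p = 0.106). That step was called in the fits without position 2 and without either flank array. It was also called without both the second tailbud center array and the right flank array. The first step was called under 15 of 23 alternatives, and not without the left flank array (adjusted p = 0.241), without either array of the tailbud center (adjusted p = 0.0572 and 0.0993) or under either other scaling (adjusted p = 0.0967 and 0.117). The trend was called under all 24 alternatives, between 3.30 and 4.29.

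*pcdh8*, the paraxial protocadherin that acts in mesoderm movement and segmentation, was the other gene that rose. Its signals were 20.3 and 134.5 at position 1, 13 and 17.2 at position 2, 56.8 and 38.4 at position 3, 130.7 and 85.7 at position 4, 172.8 and 248.4 at position 5, and 115.8 and 201.2 in the somites. It was highest in the anterior PSM, with a mean of 211 ± 53.5, and lowest at the flank, with 15.1 ± 2.97. Both flank arrays lay below the filter level, a signal of 18.38, and the first tailbud center array, 20.3, was close to it. The changes of *pcdh8* are thus measured partly from low signals. The arrays of positions 2 and 3 lay below all arrays of positions 4 to 6. The trend was 2.33 ± 0.50 (5.04-fold, limma adjusted p = 0.00327). It was 1.56 without the first array of the tailbud center (adjusted p = 0.0416) and 3.11 without the second (adjusted p = 0.000246). The 2 arrays of the tailbud center lay far apart, and the direct difference of the ends, 1.26 ± 0.59, was not called (adjusted p = 0.231). Without the second array of the tailbud center that difference was 2.35 (adjusted p = 0.0265), and without the first it was 0.17 (adjusted p = 0.923).

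*pcdh19*, a protocadherin that works together with N-cadherin in zebrafish neural tissue, went the opposite way. It measured 161.8 and 211.9 at position 1, 261.5 and 391.4 at position 2, 186.8 and 206.4 at position 3, 126.1 and 136.5 at position 4, 62.0 and 67.6 at position 5, and 27.3 and 101.8 in the somites. The arrays of positions 1 to 3 all lay above those of positions 4 to 6. The trend was -2.09 ± 0.37 (4.27-fold lower, limma adjusted p = 0.000502), and it was called under all 24 alternatives. The log2 difference of the somites from the tailbud center was -1.56 ± 0.43 (adjusted p = 0.0251). That call held under 17 of 24 alternatives; it was lost, among others, without either tailbud center array (adjusted p = 0.0616 and 0.159) and without the first somite array (-0.79, adjusted p = 0.398).

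The other protocadherin genes were below the filter. *pcdh10a*, the paralogue of *pcdh10b*, had a median of 10.8 over the 12 arrays and a highest value of 86.3 in the posterior PSM. *pcdh18a*, *pcdh1a6* and *pcdh1b* reached 54.1, 43.9 and 38.3.

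**Figure D2:**
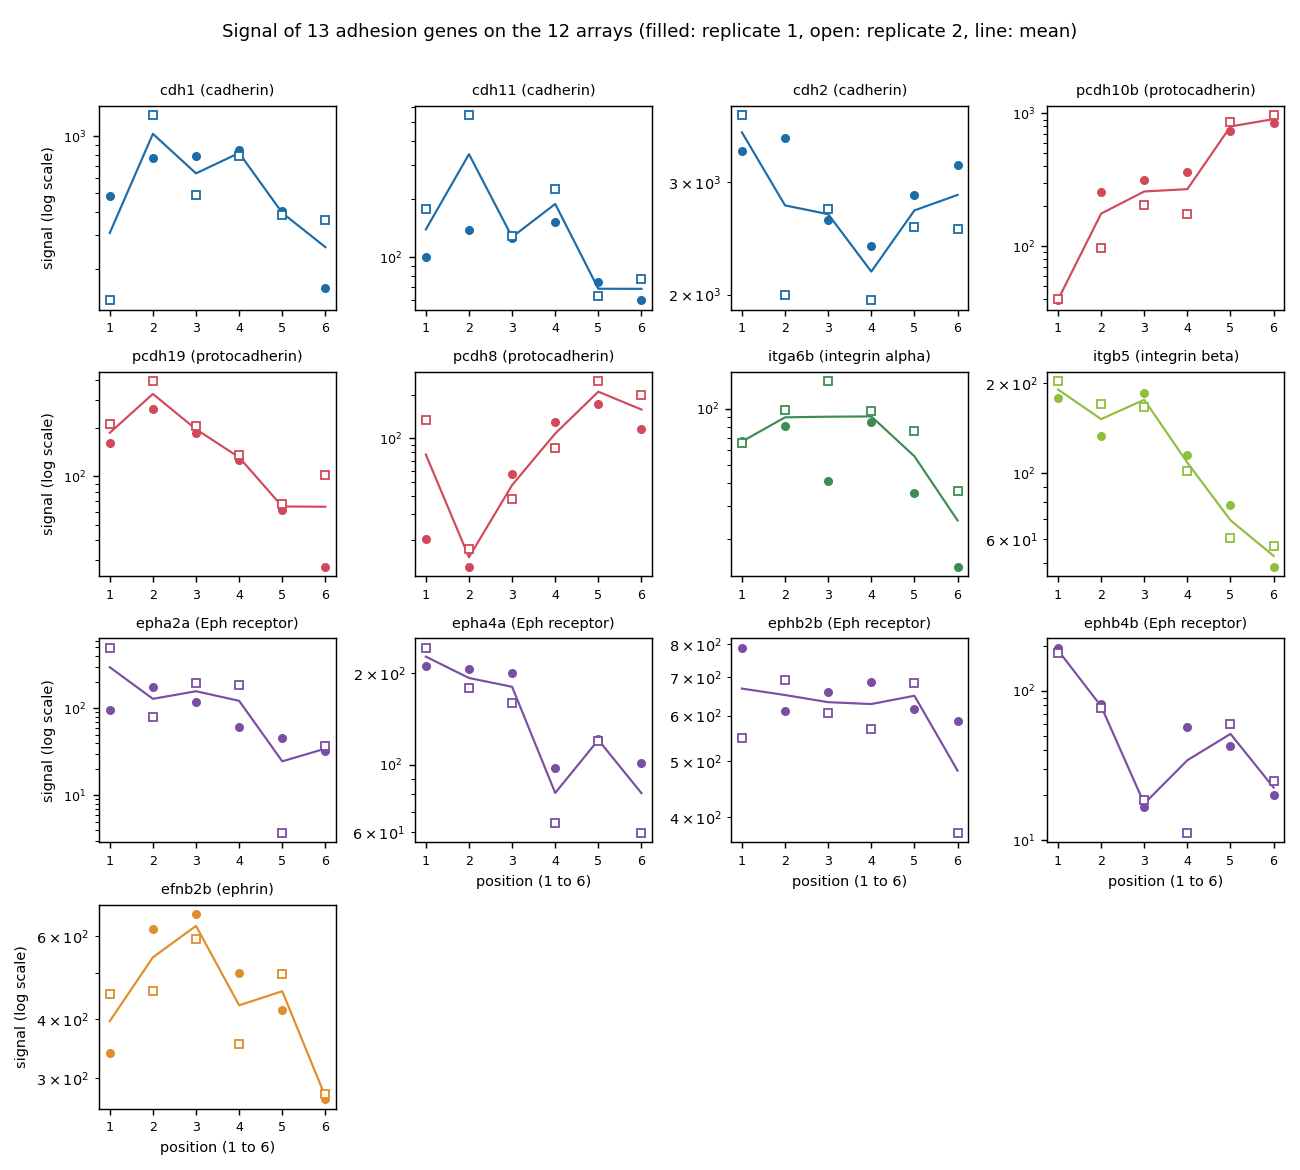
Signal on a log axis at each position for the 13 genes named by the rule, the filled circle being replicate 1, the open square replicate 2 and the line their mean. *pcdh10b* runs from about 39.5 to 908, *itgb5* from 191 to 52.8, and *cdh2* stays between 1959.6 and 3819.5; each panel has its own axis.

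Among the cadherins, N-cadherin was not called in any comparison, and E-cadherin was highest between the ends of the axis. *cdh2*, N-cadherin, the adhesion molecule of mesoderm and neural tube, measured between 1959.6 and 3819.5 on the 12 arrays, with a median of 2672. Its position means ran from 3588 ± 328 in the tailbud center to 2173 ± 302 in the center PSM and 2864 ± 464 in the somites. The trend was -0.27 ± 0.19 (limma adjusted p = 0.423), which turned to 0.10 under median centring, and the F test gave adjusted p = 0.312.

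*cdh1*, E-cadherin, the adhesion molecule of epithelia, differed among the positions (F test, limma adjusted p = 0.00884). Its signals were 480.8 and 135.9 at position 1, 764.0 and 1294.7 at position 2, 783.0 and 489.8 at position 3, 844.8 and 787.1 at position 4, 401.1 and 385.8 at position 5, and 157.3 and 361.8 in the somites. Both arrays of positions 2, 3 and 4 lay above all arrays of positions 1, 5 and 6. From the center of the tailbud to its flank it rose by 1.90 ± 0.43 (3.73-fold, adjusted p = 0.0307), while the ends did not differ detectably (-0.10 ± 0.43, adjusted p = 0.935).

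The course of *cdh1* can be set beside the epidermal markers. Their summed signal was lowest on the second array of the tailbud center, 704.6, where *cdh1* also had its lowest value, and highest on the right flank, 7782, where *cdh1* had its highest. In the posterior PSM it was 7265 and 4515, in the center PSM 7273 and 6691, and in the somites 880.8 and 2296. In the anterior PSM it was 4759 and 3174, above the 1276 of the first tailbud center array, while *cdh1* was lower there than on that array. Of the 7 tested epidermal markers, 6 rose at the step from tailbud center to flank, where 1.11% of all tested probe sets rose. The part of epidermal cells in the *cdh1* result was not tested. The *cdh1* step was called under 13 of 23 alternatives. It was not called without the right flank, without the second tailbud center array or without either posterior or center PSM array. Nor was it called with limma under median centring (adjusted p = 0.113), with array weights (adjusted p = 0.111) or with variances without the intensity trend (adjusted p = 0.215). The F test was called under 22 of 24 alternatives. The exceptions were median centring (adjusted p = 0.158) and variances without the intensity trend (adjusted p = 0.198).

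**Figure D3:**
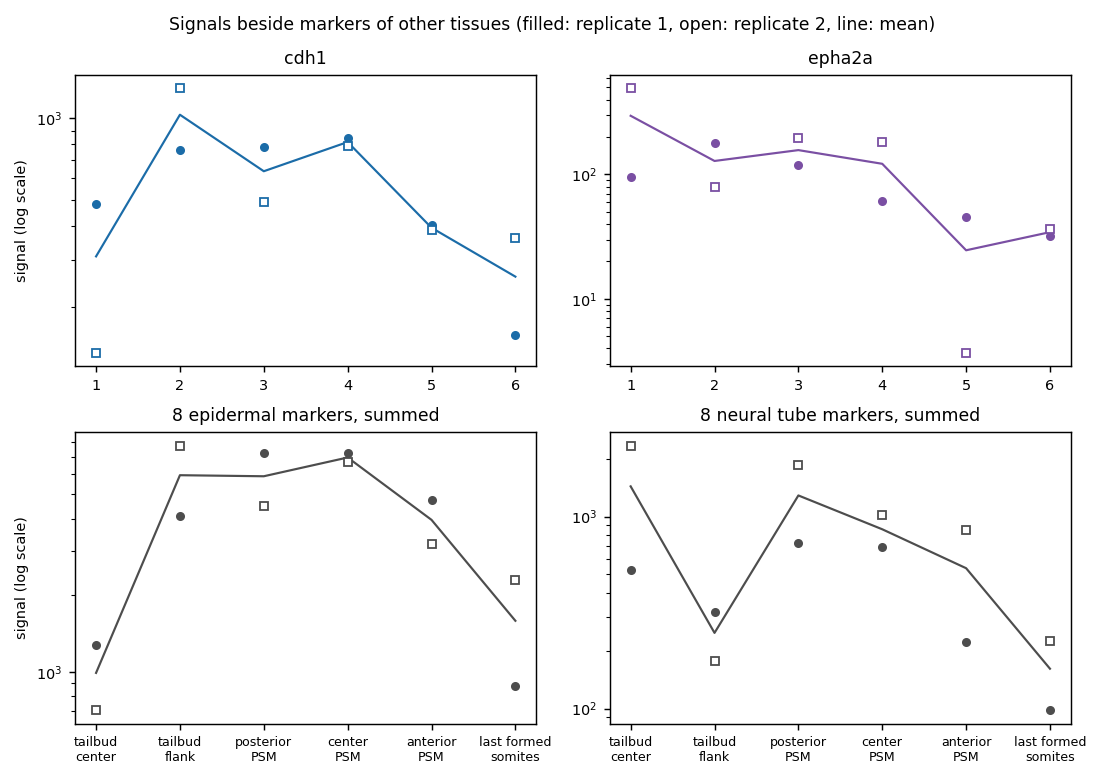
Signals on log axes of *cdh1* (top left) and *epha2a* (top right) at the 6 positions, above the summed signals of 8 epidermal markers and of 8 neural tube markers; filled circles are replicate 1, open squares replicate 2 and lines the means. *cdh1* and the epidermal sum both have their lowest value on the second array of position 1 and their highest on the second array of position 2, and *epha2a* and the neural tube sum both peak on the second array of position 1.

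*cdh11*, a type II cadherin of mesenchyme, fell along the trend by 1.34 on the log2 scale, a fitted change of -1.34 ± 0.41 (limma adjusted p = 0.0371). Its signals were 100.3 and 177.7 at position 1, 138.1 and 543.9 at position 2, 125.0 and 128.9 at position 3, 151.3 and 225.3 at position 4, 74.4 and 62.7 at position 5, and 59.7 and 77.2 in the somites. All arrays of positions 5 and 6 lay below all arrays of positions 1 to 4. The right flank array was the highest, and without it the trend was -0.93 (adjusted p = 0.0825). The call held under 9 of 24 alternatives. The gene's other probe set gave a trend of -0.65 (adjusted p = 0.583).

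*cdh18a*, another type II cadherin, had position means of 107 ± 32.0, 89.8 ± 8.56, 84.6 ± 8.77, 49.6 ± 6.65, 48.4 ± 0.0707 and 41.9 ± 2.05. Every array of positions 1 to 3 lay above every array of positions 4 to 6, with a trend of -1.21 ± 0.40 that was not called (adjusted p = 0.0542; called under 5 of 24 alternatives). *cdh4*, *cdh13*, *cdh15*, the cadherin of muscle cells, and *cdh17*, which in zebrafish marks the pronephric ducts, were below the filter. Their medians ran from 7.05 to 11.55, and *cdh17* reached 274.2 on 1 center PSM array with 2.8 on the other.

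*itgb5*, an integrin beta chain that pairs with the alpha V chain, fell along the axis. It measured 178.2 and 203.0 at position 1, 133.5 and 169.8 at position 2, 186.2 and 166.0 at position 3, 115.4 and 101.3 at position 4, 78.4 and 60.6 at position 5, and 48.6 and 57.0 in the somites. The arrays of positions 1 to 3 lay above those of position 4, those above position 5, and those above the somites. The trend was -1.70 ± 0.32 (3.24-fold lower, limma adjusted p = 0.000989). It was called under all 24 alternatives, between -1.89 and -1.27.

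The integrin alpha chains were not called. *itga5*, the alpha chain of the fibronectin receptor that zebrafish need for their anterior somite boundaries, measured 7.3 and 20.7 in the tailbud center. Its arrays at position 2 were 56.5 and 77.6 and at position 6 34.0 and 68.3. The difference of position 2 from 1 was 1.63 ± 0.62 (adjusted p = 0.216) and the trend 0.50 ± 0.53 (adjusted p = 0.620). *itga6b*, the alpha chain of a laminin receptor, ran from 14.2 to 140.3, with means of 90.9 ± 8.63 in the center PSM and 25.2 ± 15.5 in the somites (trend -1.07 ± 0.49, adjusted p = 0.173). *itga2b*, a chain of the platelet fibrinogen receptor, and *itgae.2* were below the filter, with highest values of 82.1 and 54.1.

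Of the 6 Eph receptors tested, 3 fell along the trend and 0 rose in the limma test, where 6.12% of all probe sets fell and 7.1% rose. The estimates of all 6 were below 0 for the deposited scaling, as were 57.6% of those of all tested probe sets. *epha4a*, an EphA receptor known from somite boundaries and hindbrain segments, measured 211.0 and 243.1 at position 1, 207.0 and 179.3 at position 2, 201.0 and 160.4 at position 3, 97.4 and 64.3 at position 4, 121.5 and 120.1 at position 5, and 101.7 and 59.7 in the somites. The arrays of positions 1 to 3 lay above all those of positions 4 to 6. Its trend was -1.42 ± 0.31 (2.67-fold lower, limma adjusted p = 0.00373). Under median centring it was -1.06 and not called (adjusted p = 0.0679), and as the mean of both its probe sets it was not called either.

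*ephb4b*, whose mammalian counterpart is a receptor of venous endothelium, also fell. It measured 194.8 and 179.3 at position 1, 81.5 and 76.4 at position 2, 16.7 and 18.5 at position 3, 57.5 and 11.2 at position 4, 43.1 and 60 at position 5, and 20.2 and 24.9 in the somites. Each array of position 1 lay above each of position 2, and each of those above all others. The somites were lower than the tailbud center by a log2 difference of -2.52 ± 0.59 (5.74-fold, limma adjusted p = 0.0086). The endothelial and blood markers had their lowest sums, 227.4 and 272.3, in the tailbud center, where *ephb4b* was highest. In the somites they summed to 728 and 1410. The part of endothelial and blood cells in the *ephb4b* result was not tested. The notochord and floor plate markers had their highest sums, 2037 and 3188, at position 1, where *ephb4b* was highest. They summed to 989.6 and 603.3 at position 2, 376 and 631.4 at position 3, and 188.7 and 369.3 at position 4. At position 5 the sums were 144.5 and 103.4, and in the somites 60.5 and 84.3. At position 3 *ephb4b* was lower than at position 5, where that sum was lower. Its position 3 signals, 16.7 and 18.5, were close to the filter level of 18.38. The part of notochord and floor plate in the results of *ephb4b*, *epha2a*, *epha4a* and *itgb5*, with highest means at position 1, was not tested. Without either array of the tailbud center or of the somites that difference was not called. The trend of -1.97 ± 0.50 (adjusted p = 0.0113) was not called under quantile normalization (adjusted p = 0.0638), without the first tailbud center array (adjusted p = 0.065) or without the first somite array (adjusted p = 0.0697).

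*epha2a*, an EphA receptor of epithelia in mammals, fell by 2.64 along the trend, a fitted change of -2.64 ± 0.60 (6.23-fold, limma adjusted p = 0.00464). Its signals were 95.2 and 497.3 at position 1, 177.9 and 78.9 at position 2, 118.9 and 195.0 at position 3, 60.9 and 182.8 at position 4, 45.5 and 3.7 at position 5, and 32.0 and 36.8 in the somites. All arrays of positions 5 and 6 lay below all others. The replicates lay far apart at position 1 and at position 5. The highest value, 497.3, was on the second array of the tailbud center, where the neural tube markers summed to 2344 against 529.4 on the first. On the second anterior PSM array, where *epha2a* had its lowest value, that sum was 855.3, and on the left flank, with *epha2a* at 177.9, it was 317.8. Without the second tailbud center array the trend was -1.84 and the difference of the ends -1.21. With all arrays that difference was -2.33 ± 0.70 (limma adjusted p = 0.0404). Its call held under 14 of 24 alternatives. It was lost under quantile normalization (adjusted p = 0.122) and under median centring (adjusted p = 0.0629). The F test of *epha2a* was called under 12 of 24 alternatives. The part of neural tissue in the *epha2a* result was not tested.

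*ephb2b*, a receptor of B-type ephrins, was not called in any comparison, with 374.8 to 787.6 over the 12 arrays and a median of 612.9 (trend -0.34 ± 0.21, adjusted p = 0.324). That estimate was 0.02 under median centring. *ephb3a* ran from 23.7 to 103.8 (trend -1.10 ± 0.48, adjusted p = 0.152), and *epha6* from 2.3 to 107.6 with replicates of the flank at 83.2 and 6.5. *epha4b*, *epha4l* and *ephb4a* were below the filter, with highest values of 69.8, 42.4 and 72.1. Of the 5 paralogue pairs in the set, the ephrin pairs *efna5a* with *efna5b* and *efnb2a* with *efnb2b* had both genes tested. In the other pairs, those of *epha4*, *ephb4* and *pcdh10*, 1 gene was below the filter and was not tested.

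Of the 8 ephrins 7 were tested, and 0 were called along the trend with limma, where 2 (*efnb2a* and *efnb2b*) had an unadjusted p under 0.05, as did 25.5% of all tested probe sets. *efnb2b*, a transmembrane ephrin, differed among the positions (F test, adjusted p = 0.0423). It measured 340.0 and 452.6 at position 1, 621.7 and 459.3 at position 2, 667.5 and 592.1 at position 3, 501.6 and 354.5 at position 4, 418.5 and 498.3 at position 5, and 271.0 and 277.8 in the somites. Both somite arrays lay below all others, and the posterior PSM mean of 630 ± 53.3 was the highest. The F call was lost under median centring (adjusted p = 0.689) and held under 14 of 24 alternatives. Its other probe set was not called (F test, adjusted p = 0.39).

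*efnb2a*, the ephrin that meets *epha4a* at zebrafish somite boundaries, measured 4.6 and 3.4 at position 1, 10.7 and 54.5 at position 2, 5.0 and 8.6 at position 3, 8.5 and 14.6 at position 4, 33.2 and 45.1 at position 5, and 92.0 and 41.2 in the somites. Both arrays of positions 5 and 6 lay above every other array but the right flank. The left flank and all arrays of positions 1, 3 and 4, at 3.4 to 14.6, lay below the filter level, a signal of 18.38. The gene passed the filter by its mean over all arrays, and its changes are measured from these low signals. The trend was 1.78 ± 0.61 and not called (limma adjusted p = 0.0622). It was called under 6 of 24 alternatives, among them quantile normalization (adjusted p = 0.0291) and median centring (adjusted p = 0.0271). Positions 5 and 6 had higher *efnb2a* means and lower *epha4a* means than the posterior PSM. Against the center PSM, with an *epha4a* mean of 80.85, the anterior PSM was higher for both genes (*epha4a* mean 120.8). The *epha4a* mean of the somites, 80.7, was close to that of the center PSM. The pieces are too large to show stripes within a somite.

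The remaining ephrins were not called in any comparison. *efna5a*, an ephrin held by a lipid anchor, ran from 28.2 to 603.5, with 87.9 and 603.5 on the 2 arrays of the center PSM. *efna5b* ran from 2.5 to 79.0, *efna3b* from 6.9 to 58.3, *efnb1* from 4.7 to 101.4 and *efnb3b* from 12.0 to 86.9. Their F tests had adjusted p between 0.381 and 0.922. *efna2a* was below the filter and reached 67.2.

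**Figure D4:**
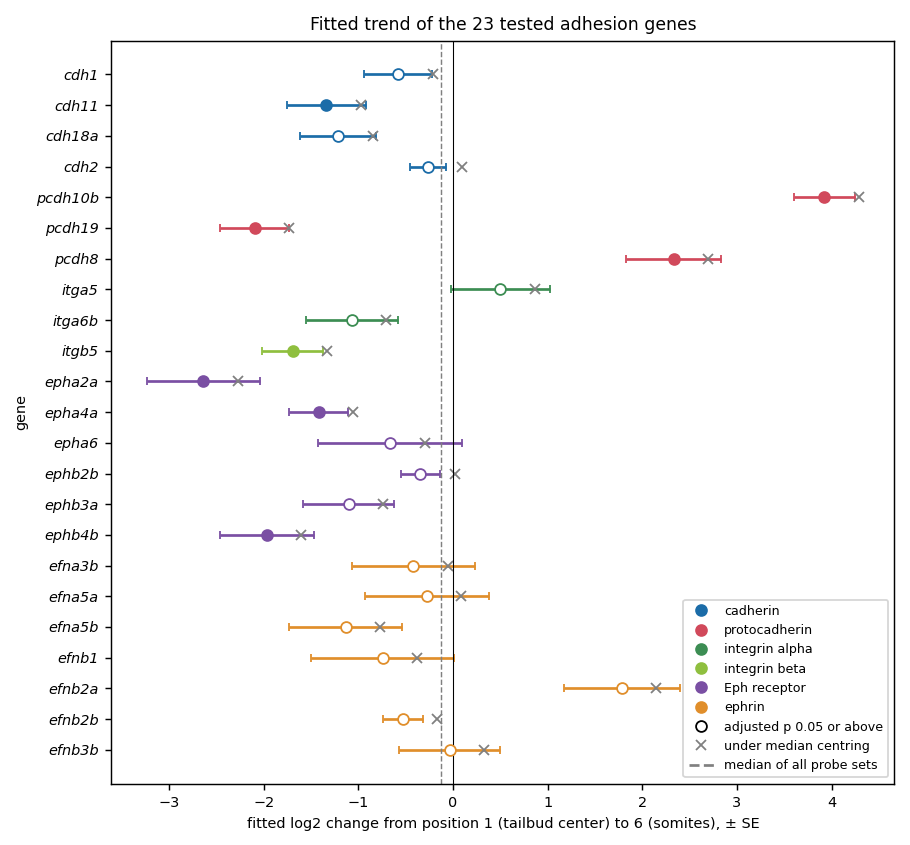
Fitted log2 change from position 1 to position 6 with its SE for the 23 tested genes, coloured by family; filled circles have an adjusted p under 0.05, crosses are the estimates under median centring, and the dashed line is the median of all probe sets, -0.13. *pcdh10b* and *pcdh8* are the filled circles right of 0, and *cdh11*, *pcdh19*, *itgb5*, *epha2a*, *epha4a* and *ephb4b* those left of it.

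The families were also compared as profiles, as the mean of the log2 values after centring each gene. The mean of the 6 Eph receptors went from 0.59 at position 1 over 0.41, 0.24, -0.13 and -0.31 to -0.80 in the somites. The 4 cadherins had 0.04 in the tailbud center, 0.60 at the flank and -0.56 in the somites, where the flank value was 0.35 on the left and 0.85 on the right. The 3 integrins had -0.07, 0.49 and -0.58 at the same positions, with -0.886 and -0.267 on the 2 somite arrays. The 3 protocadherins had -0.79 at position 1, 0.64 at position 5 and 0.50 in the somites, a mean over 2 genes that rose and 1 that fell. Their single arrays were at -1.213 and -0.359 at position 1 and at 0.085 and 0.911 in the somites. The position means of the 7 ephrins stayed between -0.30 and 0.21, but the 2 center PSM arrays were at -0.319 and 0.731. All tested probe sets together stayed between -0.15 and 0.08, with the lowest value also in the somites.

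**Figure D5:**
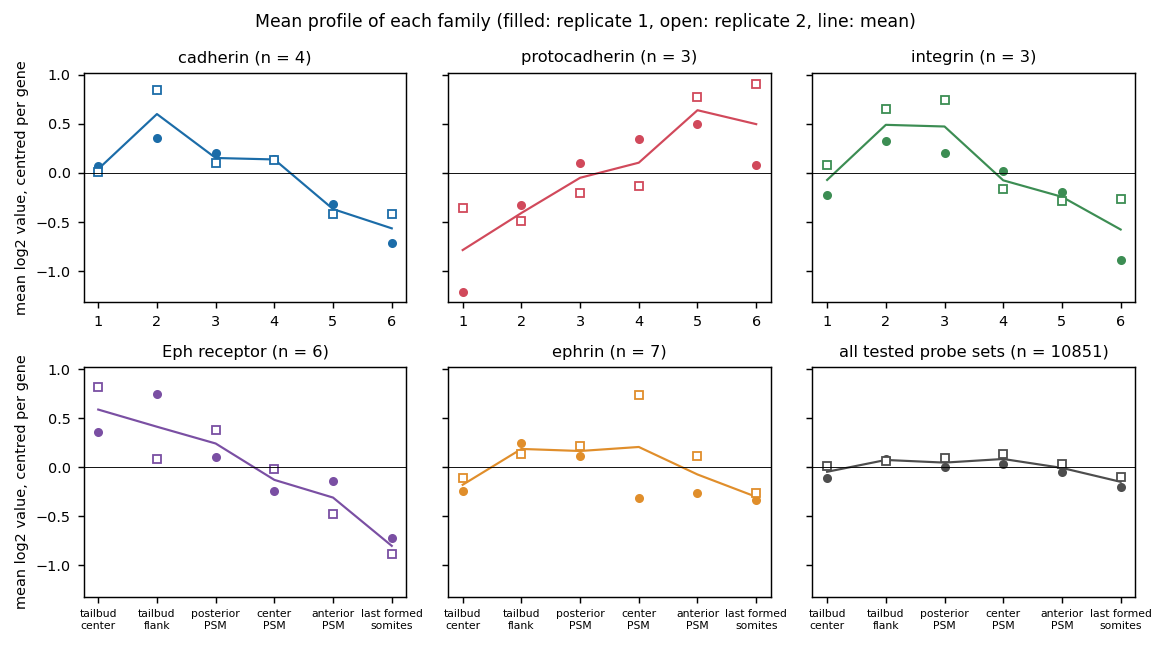
Mean over the tested genes of each family of the log2 value centred per gene (vertical axis) at the 6 positions, with filled circles for replicate 1, open squares for replicate 2 and lines for their mean; the last panel is the mean of all 10851 tested probe sets. The Eph receptor line goes from 0.59 to -0.80, the protocadherin line from -0.79 to 0.50, and the line of all probe sets stays between -0.15 and 0.08.

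The somites were the lowest position for 15 of the 23 tested genes, and for 31.9% of all tested probe sets. Both somite arrays lay below both tailbud center arrays in 14 of the 23 (33.5% of all tested probe sets) and above them in 4 (22.3% of all). In the limma test of the somites against the tailbud center, 1 gene was higher (*pcdh10b*, by 4.15 ± 0.38, adjusted p = 3.78e-07; 5.41% of all probe sets were higher). The 5 that were lower, against 4.56% of all, were *pcdh19*, *itgb5*, *epha2a*, *epha4a* and *ephb4b*. This split depended on the scaling and on single arrays. Under quantile normalization and under median centring, 2 were higher (*pcdh10b* and *efnb2a*) and 1 was lower (*ephb4b*). The deposited signals of *efnb2a* in the tailbud center, 4.6 and 3.4, were below the filter level of 18.38. Without the second tailbud center array, 2 were higher (*pcdh10b* and *pcdh8*) and 0 lower, with *itgb5* at adjusted p = 0.065 and *epha4a* at 0.117. Without the first tailbud center array 1 was higher and 2 were lower. Without the first somite array 1 was higher and 1 lower, and without the second 1 was higher and 2 were lower. The median trend of the 23 genes was -0.67, a distance of -0.54 from the median of all probe sets. Under quantile normalization, with 24 genes tested, the distance was -0.59.

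At the steps between neighbouring positions only *cdh1* and *pcdh10b* were called, both from tailbud center to flank. At the other 4 steps limma called 0 of the 23 genes. Of all probe sets it called 0.111% higher and 0.0184% lower from position 2 to 3, 0.111% higher and 0.111% lower from 3 to 4, 0.111% higher and 0.101% lower from 4 to 5, and 0.7% higher and 0.507% lower from 5 to 6. An unadjusted p under 0.05 was found from position 2 to 3 for 2 of the 23 (*cdh11* and *ephb4b*) and for 9.5% of all probe sets. From 3 to 4 it was found for 2 (*epha4a* and *efnb2b*) and for 7.29% of all. From 4 to 5 it was found for 4 (*cdh1*, *cdh11*, *pcdh10b* and *epha2a*) and for 7.07% of all. From 5 to 6 it was found for 1 (*efnb2b*) and for 12.1% of all.

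Partners of these receptors were given by lists, and their counts are set beside the 7.1% of all tested probe sets that rose along the trend and the 6.12% that fell. Of 9 tested catenins and junction partners of cadherins, 2 rose along the trend and 1 fell, with a median trend of 0.00 against -0.13 for all probe sets. *tjp2b*, a scaffold of tight junctions, rose from 124 ± 9.19 in the tailbud center to 1530 ± 418 in the somites (3.69 ± 0.29, limma adjusted p = 3.05e-08), and each position's mean was above the one before. *magi1b*, another junction scaffold, rose from 125 ± 6.08 to 1153 ± 248, and the beta-catenin gene *ctnnb2* fell from 1869 ± 145 to 1299 ± 102. Calls of the listed genes, here and below, are for the deposited scaling, and their values under the alternatives are not given. For all probe sets, 664 trend calls were lower as deposited and 262 under median centring. Of 6 tested Fat, Flamingo, desmosomal and related cadherins, 1 rose and 1 fell, with a median of -0.80. *celsr1a*, a Flamingo gene of planar polarity, rose from 120 ± 140 to 620 ± 48.4. The desmosomal gene *dsc2l* fell from 189 ± 153 to 19.6 ± 18.2.

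On the integrin side, 4 of 16 tested genes of adhesion sites rose and 0 fell with limma, with a median of 0.08. Among all tested probe sets 7.1% rose and 6.12% fell. The focal adhesion kinase gene *ptk2ab* rose from 45.5 ± 3.32 to 299 ± 89.1 (2.50 ± 0.53, adjusted p = 0.00264) and was at 239 ± 25.5 in the anterior PSM. The kinase gene *src* rose from 11.9 ± 2.76 to 136 ± 21.6, the adaptor *lims2* from 6.85 ± 1.06 to 116 ± 62.2, and *vaspb*, an actin regulator, from 250 ± 11.6 to 974 ± 138. The tailbud center means of *src* and *lims2* were below the filter level of 18.38, so their changes are measured from low signals. Of 9 tested matrix ligands 3 rose and 1 fell, with a median of 0.87. The fibronectin genes went opposite ways. *fn1a* fell from 453 ± 161 to 180 ± 64.3 (-1.49 ± 0.26, adjusted p = 0.000483), and *fn1b* rose from 920 ± 179 to 1567 ± 566 (0.87 ± 0.23, adjusted p = 0.0141). *tgfbi*, a matrix protein that integrins bind, rose from 63.0 ± 14.0 to 1333 ± 158, after 186 ± 19.2 in the anterior PSM, and *thbs4b*, a thrombospondin of muscle attachment, rose from 34.9 ± 6.01 to 454 ± 62.7.

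Among all tested probe sets 7.1% rose along the trend and 6.12% fell. Of 21 tested genes that act below Eph receptors and ephrins, 3 rose and 0 fell with limma, with a median of -0.07. They were the kinase gene *pak1*, from 412 ± 279 to 1507 ± 81.4, *dvl2*, from 131 ± 16.4 to 449 ± 39.2, and *grip2a*, a scaffold with low signals of 2.45 ± 2.19 and 45.5 ± 19.2.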

How the data were processed

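The authors deposited 1 intensity for each probe set and array, and the submitters' processing notes name MAS5, without a version. On every one of the 12 arrays the mean, with 2% trimmed from both ends, was 150. Symbols came from the platform annotation, and all 37 genes had the same symbol in RefSeq. Of 15617 rows, 115 control probe sets were left out. Signals were taken as log2(signal + 12.2), the offset being the 25th percentile, which understates changes of low genes. Probe sets under the 30th percentile of the mean log2 value were left out (4651). A model of 6 position means was fitted to 10851 with limma 3.58.1 in R 4.3.3, with variances that follow the intensity, 6 residual and 12.8 prior degrees of freedom, two-sided tests and Benjamini-Hochberg adjustment within each comparison. The number of arrays limits the precision.

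Named with values were genes called in any comparison, the gene of highest mean in each family, and, from the lists, up to 3 called genes with the largest trend. *efnb2a*, *cdh18a*, *itga5*, *fn1b* and *vaspb* were singled out after their values were seen. Genes and lists were chosen with earlier results of these data known. The alternatives were other scalings, offsets, filters and variance models, array weights, a block for the replicate number, leaving out position 2, 1 mean per gene, and each array left out. A fit without the second tailbud center array and the right flank array was added after seeing the data. The labels do not say whether a replicate number marks a shared day or batch. Correlations of the deviations of same-numbered arrays between positions lay between -0.07 and 0.09. Such correlations cannot show whether the arrays shared a day or batch, so pairing is unknown. Protein and promoter sequences were not used here.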

Additional observations from a re-analysis of the deposited data

How the results depend on the processing

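Counts among these genes moved with the setting, and so did the number tested. It was 23 as deposited, 24 under quantile normalization, 25 with an offset of 1 and 37 without a filter. With the filter at the 60th percentile it was 13, and with 1 mean per gene 20. A gene left out by a setting has no call there. The F test called 9 as deposited, 5 under median centring and 3 with variances that ignore intensity, and 4 to 9 when 1 array was left out. The ends gave 6 calls, 3 under quantile normalization, 3 under median centring and 2 to 7 with 1 array left out. The 5 steps gave 2 calls, 1 under quantile normalization, 1 with the offset at the median, and 0 with array weights, under median centring and with variances that ignore intensity. Leaving out 1 array gave 0 to 3. Along the trend, 2 or 3 genes rose and 4 to 7 fell in every alternative run. Over all probe sets, the F test called 1210, against 419 without the intensity trend and 721 with 1 mean per gene. The trend had 770 higher and 664 lower calls, against 409 and 430 without the intensity trend, 262 lower under median centring and 435 lower with 1 mean per gene. The ends had 1082 calls, against 527 without the intensity trend, 704 with 1 mean per gene and 607 to 1229 with 1 array left out. The fit with 1 mean per gene tested fewer rows; for the other changes the cause was not tested. Trend signs turned for 5 of the 23 genes, namely *cdh2* (0.10 under median centring and 0.10 with 1 mean per gene), *ephb2b* (0.02 under median centring), *cdh1* (0.04 without the first tailbud center array), *efna5a* (0.09 under median centring) and *efnb3b* (0.21 under quantile normalization and 0.33 under median centring), with no turned value called. *efna5a* also turned without the second tailbud center array, without the right flank and without both, and *efnb3b* without position 2 and without each of 6 single arrays in turn. With the second tailbud center array left out, the trend of *cdh1* was called instead (-1.20, adjusted p = 0.0159). The steps have no value for a fit without position 2.

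With the replicate number as a block, the F test called 10 genes, the 9 and *cdh11* (adjusted p = 0.0321), and it changed no other call of these genes. Without both the second tailbud center array and the right flank array, an alternative chosen after seeing the data, *cdh1* fell along the trend (-1.04, adjusted p = 0.0325). Its first step was then not called (adjusted p = 0.503). In that fit *pcdh8* was higher at the somite end (2.35, adjusted p = 0.0117). *cdh11* was then no longer called along the trend (-0.66, adjusted p = 0.332).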

Other observations

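Regulators of the change between mesenchyme and epithelium were measured as well. Of 7 tested genes, 2 rose along the trend and 1 fell, with a median of 0.02. Among all tested probe sets 7.1% rose and 6.12% fell. *tcf15*, which acts in the epithelial form of somites and is also among the somite markers, rose from 10.7 ± 0.212 in the tailbud center to 1223 ± 18.5 in the somites (5.67 ± 0.29, limma adjusted p = 6.79e-11). Its tailbud center mean was below the filter level of 18.38. The transcriptional repressor *snai1a* fell from 1008 ± 230 in the tailbud center to 259 ± 71.0 in the somites (-2.05 ± 0.24, limma adjusted p = 4.6e-06). Its relative *snai2* rose from 42.5 ± 46.5 to 532 ± 56.1 (3.09 ± 0.37, adjusted p = 6.8e-06). Both arrays of *snai1a* at position 1 lay above both of the somites, and the order was the reverse for *snai2*.

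Of the 10 other probe sets of these genes, 3 were tested and 0 were called with limma. The other probe set of *cdh2* had 48.9 and 272.6 in the tailbud center, 48.5 and 13.8 in the center PSM and 234.3 and 213.9 in the somites, with a trend of 0.47 ± 0.54 (adjusted p = 0.661) and an F test adjusted p of 0.0951. The other probe set of *efnb2b* ran from 24.9 to 214.0 with a trend of 0.12 ± 0.45 (adjusted p = 0.914).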
